A study of Mus musculus with 2 samples.

Results

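Mpp7, Tpd52l1 and BC018473 are 3 of the 32285 mouse genes counted in this series, and each was read almost entirely from 1 of its 2 single-cell libraries. They were selected on exactly that measured difference, so the contrast between the libraries is given as a description and no test is attached to it. UMIs, tags that count single RNA molecules, are given as CPM, the gene's UMIs per 1000000 UMIs of the same cells. Over all cells Mpp7 stood at 209 CPM with control IgG against 1.99 CPM with anti-CD3L1, and Tpd52l1 at 90.3 CPM against 0.807 CPM. BC018473 had 3 UMIs in the control IgG cells and 6414 UMIs in the anti-CD3L1 cells. All 3 kept their direction in each of the 4 cell classes large enough to compare. Within the library that held it, BC018473 was mostly a neutrophil RNA, whereas UMIs of Mpp7 and Tpd52l1 were read in every one of these classes. For Tpd52l1 the level in RNA outside cells was near its level over all control IgG cells.

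The cells were taken with CD45 magnetic beads, CD45 being a surface protein of immune cells, out of tumors of 143B, a human osteosarcoma line, carried under the skin of female nude mice inoculated at 4 weeks of age. Nude mice lack a working thymus and so most T cells but keep their myeloid cells, and no source used here names their strain. Both groups received 10 mg/kg of antibody, 4 doses at intervals of 3 days, either human IgG1 isotype control (control IgG) or an antibody against CD3L1 (anti-CD3L1), an immune checkpoint protein also named ITPRIPL1. Each group is 1 library pooled from 3 tumors, and the files do not tie cells to tumors, so the treatment, the library, the set of tumors and the mice cannot be told apart, and no value has a replicate check. All intervals below are at 95% and cover counting error only.

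Mpp7 (ENSMUSG00000057440) encodes a scaffold protein of the p55 family of membrane-associated guanylate kinases, which joins Dlg1 and Lin7 proteins at the junctions of epithelial cells. Tpd52l1 (ENSMUSG00000000296) encodes a small coiled-coil protein of the tumor protein D52 family, whose members bind each other and which has been linked to the stress kinase Map3k5 (ASK1). BC018473 (ENSMUSG00000056032) encodes no known protein and is annotated as an antisense long non-coding RNA. None of the 3 is a usual marker of an immune cell class, and none was among the markers used here.

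Because 10x libraries of this kind read transcripts near their poly(A) tails, the end of BC018473 is shown. It is shared by 3 of its 4 GENCODE M21 transcripts on chromosome 11 (build GRCm38, plus strand), and the capitals mark the poly(A) signal AATAAA.
BC018473 3′ end, last 150 bases before the A run: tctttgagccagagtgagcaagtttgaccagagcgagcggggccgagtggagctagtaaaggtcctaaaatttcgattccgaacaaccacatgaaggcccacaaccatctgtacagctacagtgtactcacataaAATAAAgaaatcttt
The signal ended 9 bases before the last base shown. No stretch of at least 90 bases at 95% identity or more was shared between the 4 BC018473 transcripts and the transcripts of any other annotated gene, and no annotated gene overlapped it.

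An annotated start of Tpd52l1 is shown as background to the gene, which was read in all 4 compared control IgG classes. The counts carry no coordinates, so they cannot tell whether the cells used this start. RefSeq places it on chromosome 10 of build GRCm38.p6, minus strand, at chr10:31445909-31446208, a window from 250 bases before the start to 50 bases after it. The capitals mark matches on either strand to CCAAT and GGGCGG, letters of common promoter elements, and TATAAA, also searched, had no match in this window.
Tpd52l1 promoter: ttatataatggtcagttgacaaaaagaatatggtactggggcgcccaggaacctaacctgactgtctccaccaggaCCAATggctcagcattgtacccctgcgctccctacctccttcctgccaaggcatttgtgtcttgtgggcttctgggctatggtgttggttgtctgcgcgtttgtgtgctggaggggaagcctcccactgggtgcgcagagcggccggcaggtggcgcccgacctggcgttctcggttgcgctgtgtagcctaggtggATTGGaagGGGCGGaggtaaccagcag
CCAAT matched at 2 places and GGGCGG at 1, and the matches do not overlap. Counted from the start, the CCAAT matches lay at -174 and 23 and the GGGCGG match at 31, so only the first lay before it. Of the 32851 promoter windows in the same table, 37.4% held CCAAT, 35.7% GGGCGG and 13.6% TATAAA on either strand, so none of these matches sets Tpd52l1 apart. The annotated Tpd52l1 transcripts, 5064 bases in all, shared no stretch of 90 bases at 95% identity with transcripts of another gene. Sequence outside these transcripts, such as introns, was not compared, so this does not show that all its UMIs are unique to it. On the opposite strand it overlapped Gm48094, with 8 UMIs over both libraries, and Gm48093, with 0. On its own strand it overlapped the processed pseudogene Supt4b and the model Gm48092, neither of which is among the counted features. Supt4a, the related gene of a transcription elongation factor, was at 38.9 CPM with control IgG and 157 CPM with anti-CD3L1, with log2 ratios of 1.64 to 2.29 in the 4 compared classes. Supt4a was named after its values were seen, and what part of the Tpd52l1 UMIs came from the overlapped genes was not tested.

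After filters on UMIs, genes and mitochondrial UMIs, 8557 control IgG cells with a median of 5526 UMIs and 11269 anti-CD3L1 cells with a median of 8267 UMIs remained, and only 26 cell barcodes occurred in both. Cells were assigned to classes by markers (gates). Neutrophils made up 73.5% of the control IgG cells and 6.29% of the anti-CD3L1 cells, so a difference over all cells mixes cell composition with level, and levels are therefore given within classes. At least 50 cells in both libraries were found for 4 classes: neutrophils (6291 and 709 cells, control IgG first), macrophages (466 and 3933), monocytes (967 and 3059) and natural killer (NK) cells (127 and 682). In each of these classes, in both libraries, at least 3 of the class's 6 markers were among its 10 leading genes. The cells were gated on these same markers, so this describes the gates and does not check the classes. No class was given to 614 control IgG and 1982 anti-CD3L1 cells, in which the members differed in the same directions (207 against 2.24 CPM for Mpp7, 75.8 against 0.726 CPM for Tpd52l1, and 0 UMIs against 435 for BC018473). The gated neutrophils of the anti-CD3L1 library were shallow, with a median of 2315 UMIs.

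Mpp7 was present in all 4 compared classes of the control IgG library, where its highest level was 1.97 times its lowest. Its level was 213 CPM (208 to 218) in neutrophils, 148 CPM (139 to 157) in macrophages, 191 CPM (183 to 199) in monocytes and 290 CPM (264 to 319) in NK cells. In the anti-CD3L1 library the same 4 classes held 3.72 CPM (1.78 to 6.84), 1.12 CPM (0.816 to 1.51), 0.982 CPM (0.635 to 1.45) and 8.23 CPM (6.14 to 10.8), from 10, 44, 25 and 52 UMIs. The lowest control IgG class was thus far above the highest anti-CD3L1 class, and the counting intervals of the libraries did not come near each other. The ratio of the levels, anti-CD3L1 over control IgG on the log2 scale, was -5.84 in neutrophils (-6.90 to -4.96), -7.04 in macrophages (-7.51 to -6.60), -7.60 in monocytes (-8.23 to -7.04) and -5.14 in NK cells (-5.59 to -4.73). The ratio was smallest in NK cells and largest in monocytes, and whether the classes differ in it was not tested.

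Among the classes too small for the comparison, control IgG levels of Mpp7 varied more. The 38 gated innate lymphoid cells held 296 Mpp7 UMIs, 920 CPM (818 to 1031), and 8 gated type 1 conventional dendritic cells held 122 UMIs, of which 1 cell alone had 66. The 13 mature and 16 plasmacytoid dendritic cells were at 292 CPM (215 to 387) and 259 CPM (193 to 340), near the NK cells, and the 1 gated fibroblast had 0 UMIs. In the anti-CD3L1 library the 256 innate lymphoid and 168 type 1 conventional dendritic cells held 6 UMIs each. Of the 34742 bases of Mpp7 transcripts, 2.28% lay in stretches shared with other genes at 95% identity or more, the longest of 170 bases. On the opposite strand Mpp7 overlapped the processed pseudogenes AC139157.1 and Fabp5l2, neither of which is among the counted features. What share of the Mpp7 UMIs came from shared stretches or overlapped genes was not tested. The highest anti-CD3L1 level among classes of at least 50 cells was 8.82 CPM (4.40 to 15.8) in 143 plasmacytoid dendritic cells, next to the NK cells.

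Tpd52l1 showed the same direction, and its highest control IgG level was 2.29 times its lowest. In the control IgG library it stood at 98.2 CPM (95.1 to 101) in neutrophils, 63.7 CPM (57.7 to 70.1) in macrophages, 82.2 CPM (77.3 to 87.5) in monocytes and 146 CPM (127 to 166) in NK cells. The anti-CD3L1 library had 1 Tpd52l1 UMI in its 709 neutrophils, 29 in macrophages, 19 in monocytes and 7 in NK cells, which are 0.372, 0.740, 0.746 and 1.11 CPM. The log2 ratio was -8.05 in neutrophils (-13.3 to -5.57), -6.43 in macrophages (-7.02 to -5.88), -6.78 in monocytes (-7.52 to -6.13) and -7.04 in NK cells (-8.37 to -5.97). These 4 counting intervals overlapped.

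BC018473 ran the other way. Only 3 UMIs, in 3 cells, were counted in the control IgG library, 2 of them in neutrophils and 1 in a monocyte. In the anti-CD3L1 library it stood at 1636 CPM (1588 to 1685) in neutrophils, 15.1 CPM (13.9 to 16.4) in macrophages, 14.8 CPM (13.3 to 16.3) in monocytes and 26.3 CPM (22.4 to 30.6) in NK cells. In neutrophils the ratio was 14.9 on the log2 scale (13.1 to 18.0), and in monocytes 7.51 (5.02 to 12.8). With no UMI in control IgG macrophages or NK cells, BC018473 was at least 32.9-fold and at least 13.4-fold higher there, taking 3 counts as the limit for the class total. Neutrophils were 6.29% of the anti-CD3L1 cells and gave 68.6% of their BC018473 UMIs.

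Outside these 4 classes BC018473 was unevenly spread. Plasmacytoid dendritic cells held 195 CPM (171 to 221) from 243 UMIs in 143 cells, and innate lymphoid cells 67.5 CPM (56.2 to 80.4) from 125 UMIs in 256 cells. In contrast, the 168 type 1 conventional dendritic cells had only 3 UMIs (1.20 CPM) and the 148 mature dendritic cells 8 UMIs (4.79 CPM). The 69 type 2 conventional dendritic cells held 36 UMIs (48.3 CPM) and the 56 B cells 13 UMIs (51.0 CPM). Only 10 cells were gated as mast cells or basophils, with 15 UMIs (461 CPM). The control IgG library had 0 UMIs in its 16 plasmacytoid dendritic cells and 38 innate lymphoid cells, which makes BC018473 at least 12.8-fold and at least 7.24-fold higher after anti-CD3L1 there. For the 8 control IgG type 1 and 13 mature dendritic cells, 0 UMIs allowed up to 18.2 CPM, more than the anti-CD3L1 level, so a difference was not detectable at this depth in these classes.

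**Figure D1:**
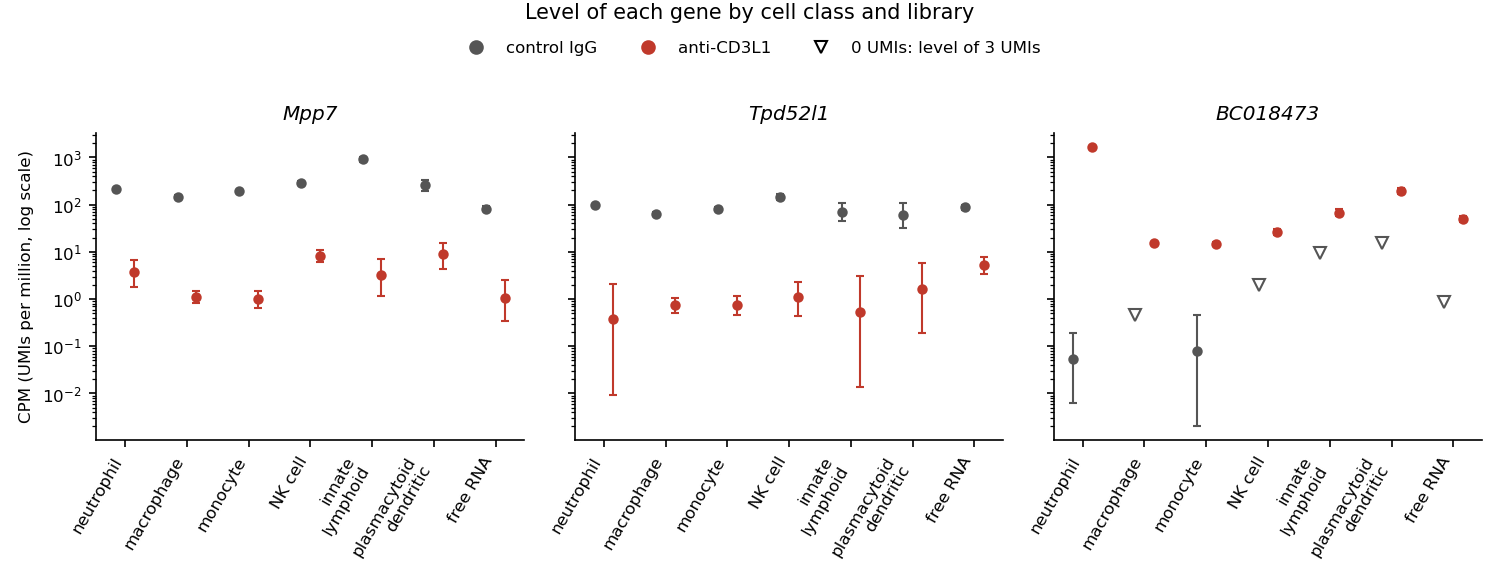
Level of Mpp7, Tpd52l1 and BC018473 in CPM (log axis) in 6 gated cell classes and in the free RNA of barcodes with 10 to 100 UMIs, for control IgG (grey) and anti-CD3L1 (red). Points are the value of 1 library and bars are exact 95% Poisson intervals, while open triangles mark 0 UMIs and are drawn at the level of 3 UMIs. Mpp7 and Tpd52l1 lie in 2 separate bands, while anti-CD3L1 BC018473 ranges from 14.8 CPM in monocytes to 1636 CPM in neutrophils.

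The share of cells with at least 1 UMI followed the same order. At a common depth of 1000 UMIs per cell, Mpp7 was seen in 14.6% of 8370 control IgG cells (13.9 to 15.4%) and 0.237% of 10959 anti-CD3L1 cells (0.155 to 0.347%). For Tpd52l1 the shares were 9.22% (8.61 to 9.86%) and 0.0730% (0.0315 to 0.144%). BC018473 was seen at that depth in none of the 8370 control IgG cells and in 5.26% of the anti-CD3L1 cells (4.85 to 5.69%), with 58.0% of the neutrophils (54.1 to 61.8%) and 18.2% of the plasmacytoid dendritic cells (12.2 to 25.5%) against 1.23% of the macrophages. Without the reduction in depth the shares over all cells were 38.0% and 1.40% for Mpp7, 44.8% and 0.577% for Tpd52l1, and 0.0351% and 13.1% for BC018473, control IgG first.

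Mpp7 was read from fewer cells of each compared control IgG class than depth alone would give, whereas Tpd52l1 lay closer to the spread by depth. Among control IgG neutrophils 64.9% had no Mpp7 UMI, where 36.8% would have none if the same UMIs were dealt out in proportion to each cell's depth alone. The gap was wider in the deeper classes, at 63.1% observed and 17.8% by depth in macrophages, 52.6% and 11.4% in monocytes, and 48.8% and 8.99% in NK cells. At the other end, 138 neutrophils, 29 macrophages, 67 monocytes and 16 NK cells had 10 or more Mpp7 UMIs, up to 43 in 1 neutrophil, and these cells carried 24.4%, 52.4%, 42.7% and 60.4% of the Mpp7 UMIs of their class.

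The cells with many Mpp7 UMIs were deeper than those with none. Macrophages with 10 or more Mpp7 UMIs had a median of 17146 UMIs in all against 13632 for those with none, and neutrophils 12202.5 against 4313, and the shares by depth alone already take each cell's depth into account. The summed level of the 6 neutrophil markers in macrophages was 1006 CPM in cells with no Mpp7 UMI, 1517 CPM with 1 to 9 and 841 CPM with 10 or more. In monocytes it was 1873, 1413 and 2052 CPM. Whether neutrophil RNA goes with Mpp7 in these classes was not tested. In the neutrophils themselves the summed marker level was lower in cells with more Mpp7 UMIs, at 161209, 152034 and 108211 CPM.

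For Tpd52l1, the share of control IgG neutrophils with no UMI was 60.5%, with 60.04% given by depth alone, and the values for monocytes were 36.6% and 36.9%. Macrophages and NK cells lay farther off on opposite sides, at 49.8% observed and 43.7% by depth, and at 20.5% and 24.5%. The variance of its UMIs around the depth-based mean was 1.13 times that mean over all control IgG cells, where a value of 1 is pure counting, while for Mpp7 it was 7.08 times. Only 1 cell had 10 or more Tpd52l1 UMIs. Detection of Tpd52l1 differed little with that of Mpp7 over all control IgG cells: at 1000 UMIs per cell Tpd52l1 was seen in 9.89% of the 1224 cells with Mpp7 and in 9.11% of the cells without it.

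**Figure D2:**
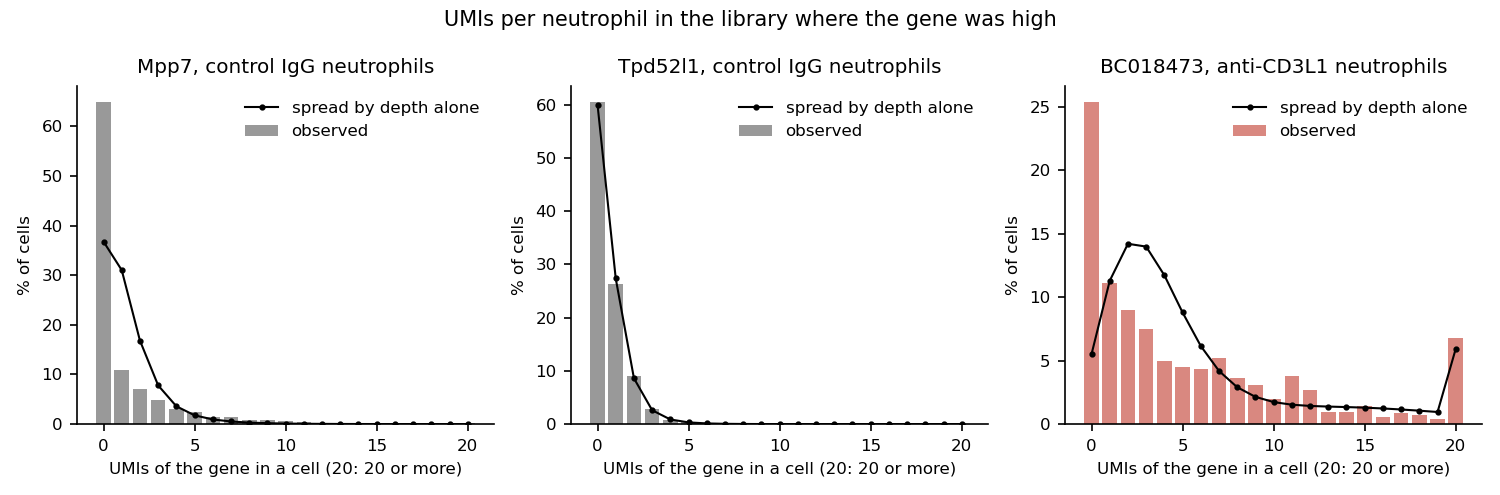
Percentage of neutrophils (y) by the number of UMIs of the gene in a cell (x, with 20 standing for 20 or more), for Mpp7 and Tpd52l1 in the control IgG library and BC018473 in the anti-CD3L1 library. Bars are observed shares, and the black line is the share if the same UMIs were spread by depth alone. The Mpp7 bar at 0 reaches 64.9% against 36.8% on the line, and the Tpd52l1 bars follow the line. BC018473 has more cells at 0 than the line, 25.4% against 5.51%, and 6.77% against 5.95% at 20 or more.

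BC018473 was also uneven among neutrophils, its main class. Of the 709 anti-CD3L1 neutrophils 25.4% had none, where depth alone would leave 5.51%. The 150 cells with 10 or more UMIs carried 65.5% of the class's UMIs, up to 83 in 1 cell. Cells with 20 or more were 6.77% of the class, against 5.95% by depth alone, so their number was near that by depth. Neutrophils with 2 or more UMIs of Ngp, a granule protein gene of immature neutrophils, held 663 CPM of BC018473 (523 to 830) in 10 cells, against 1697 CPM (1647 to 1749) in the 686 cells with no Ngp UMI. The share of cells with a BC018473 UMI ran the other way, at 9 of the 10 cells against 74.3%, and the cells with Ngp were deeper, with a median of 10182 UMIs against 2264. The control IgG library had 505 neutrophils with 2 or more Ngp UMIs, and these held 1 BC018473 UMI. The split by Ngp was chosen after its values had been seen.

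In anti-CD3L1 macrophages and monocytes, the summed level of the 6 neutrophil markers was higher in cells with more BC018473 UMIs. That sum includes Csf3r and Il1r2, which are not confined to neutrophils and were at 61.1 and 17.3 CPM over all anti-CD3L1 macrophages. The 8 macrophages with 10 or more BC018473 UMIs had a summed neutrophil marker level of 1309 CPM, the 302 with 1 to 9 had 454 CPM and the 3623 with none 112 CPM. The corresponding values for monocytes were 1944 CPM in 8 cells, 675 CPM in 133 cells and 193 CPM in 2918 cells. NK cells differed from both, with 34.9 CPM in the 120 cells with 1 to 9 BC018473 UMIs against 30.005 CPM in the 562 with none, and no NK cell had 10 or more.

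Levels over whole classes were also set beside those of the 6 neutrophil markers. Cells were gated on these markers and not on BC018473, so the gates favor high marker levels in neutrophils and low ones elsewhere. The markers are thus not an even measure of neutrophil RNA in the other classes. Relative to gated neutrophils, anti-CD3L1 macrophages held 0.922% of the BC018473 level. Of the 6 neutrophil markers, Csf3r and Il1r2, receptors also found on other myeloid cells, were at 5.62% and 2.56% of their neutrophil level in macrophages, and S100a8, S100a9, Retnlg and Cxcr2 were between 0.1003% and 0.178%. BC018473 in macrophages was thus below Csf3r and Il1r2 and above S100a8, S100a9, Retnlg and Cxcr2. In NK cells BC018473 was at 1.61%, above all 6 markers, which ranged up to 0.280%. In plasmacytoid dendritic cells it was at 11.9%, again above all 6, of which Il1r2 was highest at 2.25% and Cxcr2 had no UMI. In type 1 conventional dendritic cells it was at 0.0731%, below Il1r2 at 14.0% and Csf3r at 0.624%. How much of the BC018473 level in macrophages, monocytes, NK cells or dendritic cells came from neutrophil RNA was not tested.

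RNA outside cells carried the same 3 genes. In barcodes with 10 to 100 UMIs, which hold free RNA rather than cells, Mpp7 stood at 82.7 CPM (73.4 to 92.8) in the control IgG library and 1.06 CPM (0.346 to 2.48) in the anti-CD3L1 library. Tpd52l1 had 88.1 CPM (78.6 to 98.5) and 5.32 CPM (3.44 to 7.86). Its control IgG free RNA level was 97.6% of its level in cells, compared with 39.5% for Mpp7, and its anti-CD3L1 free RNA level was above its level in cells. Among control IgG classes, the free level of Tpd52l1 was above macrophages (63.7 CPM) and monocytes (82.2 CPM). It was below neutrophils (98.2 CPM) and NK cells (146 CPM). How much of the Tpd52l1 level in any class came from free RNA was not tested. BC018473 had 0 of 3506894 free UMIs in the control IgG library, which allows up to 0.855 CPM, and 49.4 CPM (43.2 to 56.2) in the other. The free level of BC018473 was above that of macrophages, monocytes and NK cells and below that of neutrophils, innate lymphoid and plasmacytoid dendritic cells. Free levels of S100a8, S100a9, Retnlg and Cxcr2 in the anti-CD3L1 library were likewise above macrophages, monocytes and NK cells. Those of Csf3r and Il1r2 were below monocytes. Free BC018473 was at 3.02% of its neutrophil level and free S100a8 at 2.48%. How much of the BC018473 level in any class came from free RNA was not tested.

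Barcodes of the other library were counted for UMIs of the members. Barcodes that were cells only of the other library held 62993 UMIs in the anti-CD3L1 files, with 0 UMIs of Mpp7 and 0 of Tpd52l1, and 88010 UMIs in the control IgG files, with 0 of BC018473. The 26 shared cell barcodes held 1 Mpp7 and 1 Tpd52l1 UMI in the anti-CD3L1 library. So few UMIs set only weak limits, and how much RNA was carried over between the libraries was not tested.

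Of the 8109 genes with at least 10 CPM over all cells of the higher library, all 3 members included, 3 were at least 8-fold higher after anti-CD3L1 in each of the 4 classes (0.037%) and 4 were at least 8-fold lower (0.0493%). Over all cells without regard to class, 0.506% were at least 8-fold higher and 1.41% at least 8-fold lower. The members were chosen for this pattern, so their place among these 7 genes is a description. The genes were ranked by the smallest absolute log2 ratio over the 4 classes, as the measure of likeness.

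Among the genes higher after anti-CD3L1, BC018473 ranked first with a smallest log2 ratio of 3.75, the limit set by the 0 UMIs of control IgG NK cells. It was followed by 4933424G05Rik, an uncharacterised transcript (3.28), and Lpl, the lipoprotein lipase (3.04), both also called. Kitl, the ligand of the receptor Kit, was just short of the threshold in NK cells, where it had 1 and 33 UMIs, and then came Cd36, a scavenger receptor for lipids (2.13), and Ccl9, a chemokine (2.02). Lpl was still at 16.05 CPM with control IgG, against 167 CPM with anti-CD3L1, and so was not near absent there as BC018473 was.

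Among the genes lower after anti-CD3L1, Tpd52l1 ranked first with 6.43 and Mpp7 followed with 5.14. Between them stood Saa3, an acute-phase serum amyloid gene (6.04), and after them Ly6c1 (4.50), a surface antigen gene of monocytes and other cells whose near copy Ly6c2 makes its count uncertain. Those 4 were the genes past the threshold, and Lcn2, an iron-binding protein of neutrophil granules, and Fpr1, the formyl peptide receptor, followed with 2.81 and 2.63 from the outside. Saa3 was at 6932 CPM against 67.7 CPM in neutrophils and at 2881 CPM against 17.8 CPM in macrophages, control IgG first. Ly6c1 was at 397 CPM against 0.589 CPM in monocytes. Saa3 thus kept a readable level after anti-CD3L1 in neutrophils and macrophages, and also in monocytes at 86.6 CPM. In anti-CD3L1 NK cells it had only 13 UMIs, 2.06 CPM. Ly6c1, like Mpp7 and Tpd52l1, had few UMIs left.

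**Figure D3:**
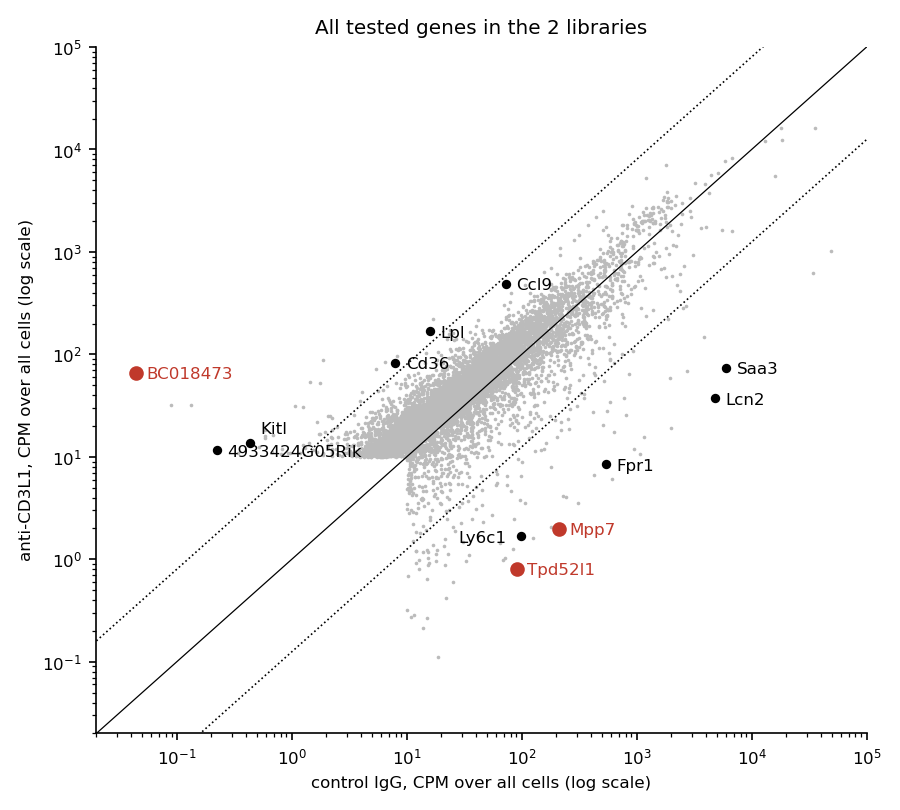
Level over all cells in CPM in the control IgG library (x, log axis) and the anti-CD3L1 library (y, log axis) of the 8109 genes with at least 10 CPM in the higher library. Grey points are genes, with a gene at 0 UMIs drawn at the level of 3 UMIs, red points the 3 members and black points the other genes ranked in the first 6 of either direction. The solid line marks equal levels and the dotted lines 8-fold. BC018473 lies farthest left, at 0.0446 and 65.5 CPM.

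The relatives and partners of Mpp7 did not share its difference, which few genes of any kind did. Of 15 p55 and polarity genes, 12 had at least 20 UMIs, of which 1 was at least 8-fold higher and 0 lower, and their median log2 ratio was 0.78 against 0.72 over all 17781 genes with 20 UMIs, of which 2.34% were at least 8-fold higher and 1.42% lower. The binding partners Dlg1 and Lin7c were at 57.0 and 34.3 CPM with control IgG and at 98.9 and 31.5 CPM with anti-CD3L1. The family members Mpp1 and Mpp5, the latter a partner of the polarity protein Crb3, were at 94.2 and 77.9 CPM and then at 92.5 and 106 CPM. The 1 gene past 8-fold was Yap1, a transcription co-activator, at only 7 and 99 UMIs.

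The measured relatives and partner of Tpd52l1 likewise did not share its difference. Tpd52, the founding member, was at 1068 CPM in control IgG neutrophils and 920 CPM in anti-CD3L1 neutrophils, and at 321 and 349 CPM in macrophages. Tpd52l2 was at 25.9 and 42.8 CPM in neutrophils and at 51.0 and 54.4 CPM in macrophages, and Map3k5 at 274 and 212 CPM and at 64.2 and 48.8 CPM. Over all cells Tpd52 had a log2 ratio of -1.11 and Map3k5 of -1.39, larger than within either class. None of the 3 measured genes was 8-fold apart over all cells, beside 2.34% of all genes with 20 UMIs higher and 1.42% lower. With so few genes, such a count does not set them apart. Mal2 had 0 UMIs in both libraries, and Tpd52l3 was not among the counted features.

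On the chromosome, none of the 10 neighbours of Mpp7 or of Tpd52l1 was 8-fold lower with it over all cells. Of all genes with 20 UMIs only 1.42% were, so having none among 10 does not set these neighbours apart. In the gene order of GENCODE M21, where 32158 of the 32285 counted identifiers were found, the 5 nearest genes with 20 UMIs on each side of Mpp7 on chromosome 18 had log2 ratios of -0.43 to 3.08 over all cells. The nearest on each side, Armc4 and Gm9993, were at 0.02 and 0.99, and the 1 gene past 8-fold, Fzd8, was higher after anti-CD3L1, the opposite of Mpp7, on 7 and 86 UMIs. The 10 neighbours of Tpd52l1 ranged from -0.43 to 1.92, with Hddc2 at 1.13 and Rnf217 at 1.92 next to it, none past 8-fold. In macrophages Hey2, a transcription factor gene, had 5 UMIs with control IgG and 3 with anti-CD3L1, a log2 ratio of -3.32 (-6.01 to -0.96).

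BC018473 had neighbours past 8-fold in its own direction. Of its 10 neighbours 4 were at least 8-fold higher after anti-CD3L1 over all cells, beside 2.34% of all genes with 20 UMIs. They were St6galnac1 and St6galnac2, sialyltransferases on its 2 sides, and Prcd and Cygb beyond the latter. Ratios over all cells mix cell composition with level. St6galnac1, 5.65 kb away on the opposite strand in build GRCm38, had 1 UMI in control IgG neutrophils and 136 in anti-CD3L1 neutrophils, a level of 50.6 CPM, and its log2 ratio there was 10.9 (8.39 to 16.2). Like BC018473 it was lower in macrophages, at 1.74 CPM from 68 UMIs against 0 UMIs in control IgG.

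The other neighbours of BC018473 were set apart from it by class. St6galnac2 had 153 UMIs in anti-CD3L1 macrophages and 86 in NK cells, with 1 and 2 UMIs in control IgG, and log2 ratios of 4.68 (2.18 to 9.99) and 3.38 (1.49 to 6.45). In neutrophils it had 3 UMIs with control IgG and 4 with anti-CD3L1, a ratio of 4.22 (1.66 to 6.99). Prcd and Cygb had 0 and 2 UMIs in anti-CD3L1 neutrophils. In macrophages Cygb was at 1.79 (0.17 to 4.10), and Prcd had 0 UMIs with control IgG and 18 with anti-CD3L1. In monocytes Prcd was at 1.95 (-0.94 to 7.43) and Cygb, with 0 UMIs in control IgG, at no less than 2.23. An 8-fold difference of Prcd or Cygb was thus not shown within these classes. Snhg16, a host gene of small nucleolar RNAs between St6galnac2 and Prcd, was at 2.85 in neutrophils (1.91 to 3.74) and -0.21 in macrophages (-0.69 to 0.29). On the far side of St6galnac1, Mxra7 was at -0.51 in neutrophils (-5.89 to 2.13) and Jmjd6 at -0.49.

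**Figure D4:**
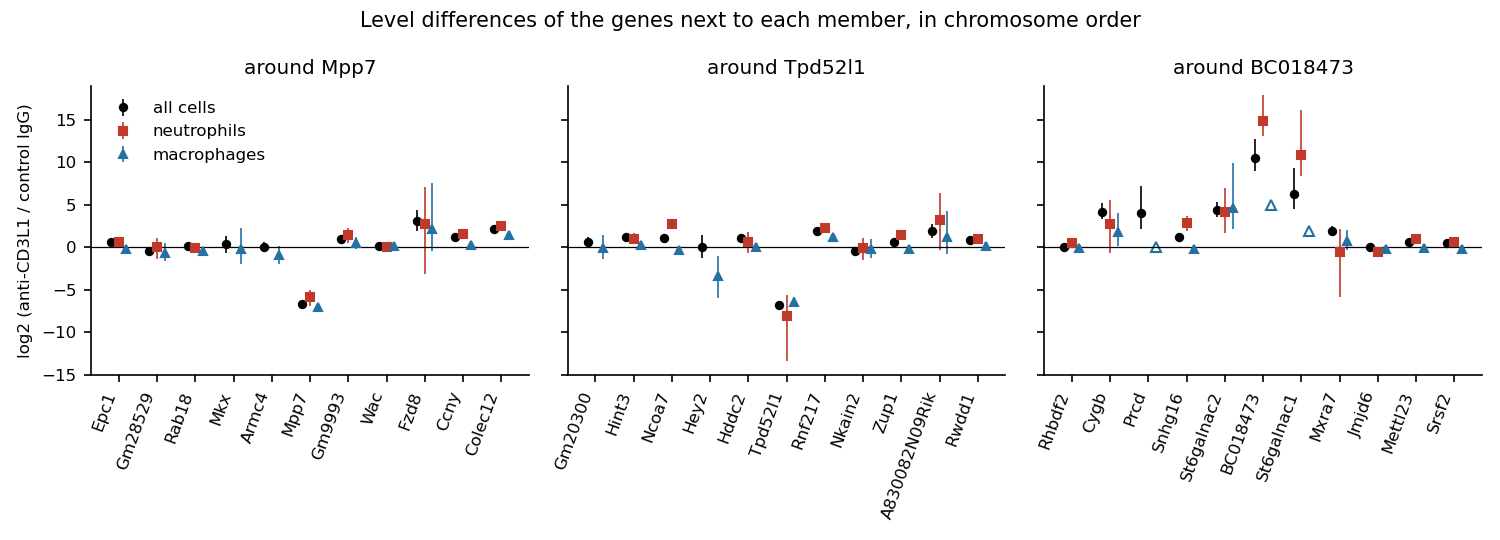
Log2 ratio of levels, anti-CD3L1 over control IgG (y), for each member and the 5 nearest genes with at least 20 UMIs on either side in chromosome order (x), over all cells (black), neutrophils (red) and macrophages (blue). Bars are exact 95% counting intervals, open symbols are limits where 1 library had 0 UMIs, and a gene with no bound has no symbol. Mpp7 and Tpd52l1 lie below all their neighbours at -6.71 and -6.81 over all cells, whereas St6galnac1 and BC018473 both lie high, at 10.9 and 14.9 in neutrophils.

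Genes that could tell mice of different sex or stock apart gave mixed values. Xist, the RNA of the inactive X chromosome, was at 419 CPM with control IgG and 618 CPM with anti-CD3L1 over all cells, but at 857 CPM against 624 CPM in macrophages, 900.1 CPM against 752 CPM in NK cells and 563 CPM against 565 CPM in monocytes. The Y-linked genes Ddx3y, Eif2s3y, Kdm5d and Uty had at most 52 UMIs in either library, with Eif2s3y at 1 and 39. Of the genes listed for known differences between mouse strains, Nnt had 27 and 49 UMIs over all cells. Ifi202b was at 193 CPM against 227 CPM in macrophages, 288 CPM against 313 CPM in monocytes and 36.3 CPM against 131 CPM in neutrophils. Klra8, an NK cell receptor gene, had 71 UMIs in the 127 control IgG NK cells and 5 in the 682 anti-CD3L1 NK cells. Ly6a, a lymphocyte antigen gene also driven by interferon, was at 14.8 CPM against 202 CPM in macrophages and 1.62 CPM against 104 CPM in neutrophils, but at 42.4 CPM against 37.2 CPM in NK cells. H60a and H2-Ea-ps were not among the counted features. The mice and the treatment cannot be told apart in the values of the 3 members. Itpripl1, the mouse gene of CD3L1, was at 2.91 and 6.63 CPM over all cells but at 7.48 and 5.03 CPM in macrophages and 10.4 and 8.86 CPM in NK cells. The paper describes the antibody as highly specific for the human protein, whose RNA the mouse counts used here do not cover. Nrp2, which the study names as the receptor of CD3L1 on macrophages, was at 320 and 336 CPM in macrophages.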

How the data were processed

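The deposited counts are whole UMIs for each gene in every barcode, which the authors made with Cell Ranger 7.1.0 as the submitters' processing notes and the study's methods give it, together with 1 table of the authors' own macrophage comparison (fold changes, shares of cells and p-values), which was not used. The notes also name GRCm39 and Seurat 5.1.0. The reference used here for gene order and sequences was GENCODE M21 and RefSeq on GRCm38. The deposited counts carry no coordinates, so identifiers alone were matched.

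Barcodes were kept with at least 500 UMIs, over 200 and under 6000 genes and under 5% mitochondrial UMIs. No doublet caller was run. For each of 16 classes a cell's score was the mean over markers of ln(1 + UMIs per 10000), and a cell was gated with a score of at least 0.5, a lead of 0.2 and 2 detected markers. The members and lists were chosen with earlier results of these data known. UMIs were summed by class and library and scaled to the class total. With 1 library per group no test was made. Intervals are exact Poisson (CPM), exact binomial (shares) and conditional binomial (ratios). For a 0 the limit is 3 counts. Thinning drew 1000 UMIs per cell and left out shallower cells. Named genes were the members, lists of their relatives and partners, the 5 nearest genes on each side with 20 UMIs, the 6 genes in each direction with the largest smallest ratio over classes, sex-linked and strain-differing genes, and the antibody's target and its receptor. Others were named after their values were seen. The interval and the call in every class were tested on simulated counts that held counting error only. UMIs of Mpp7 and BC018473 varied more than that between cells, so the simulation cannot check their intervals. Its changed genes had higher levels over both libraries and smaller differences than Tpd52l1, so the Tpd52l1 intervals were not checked either. Annotated transcripts were compared with blastn 2.17.0, and sequence outside them was not searched. Python 3.11.15, numpy 2.4.6, scipy 1.17.1 and pandas 2.3.3 were used, and leidenalg 0.10.2 for clusters made without the members. Alternatives changed the cell filters, scaling, class definition, fold, level filter, depth and free RNA.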

Additional observations from a re-analysis of the deposited data

How the results depend on the processing

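No log2 ratio of a member changed direction under its 10 alternatives, and all 3 members were called in every class under each setting but the 16-fold threshold, where BC018473 was not. Over all cells, Mpp7 went from -6.71 to -7.04 with the median of log2 ratios set to 0, to -5.91 with equal weight for each class and to -6.41 with cells thinned to 1000 UMIs. Tpd52l1 went from -6.81 to -6.42 over all barcodes and to -8.21 with free RNA subtracted at 10%. BC018473 went from 10.5 to 13.6 with equal weight, where neutrophils count for more, and to at least 8.76 in thinned cells, where the control IgG library had 0 UMIs. Setting the median to 0 shifts all ratios by 0.33 over all cells and by 0.32 in neutrophils.

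The count of genes higher in every class went from 3 to 6 at 4-fold, to 0 at 16-fold, to 1 without the 10% of cells with the most UMIs and to 1 with stricter gates, the last added after seeing the data. The gene left in these 2 settings was BC018473. The count of genes lower in every class went from 4 to 11 at 4-fold and lay between 4 and 5 otherwise. Clusters made without the members gave 2 higher and 4 lower genes. In the 16 control IgG clusters Mpp7 ranged from 99.3 to 525 CPM, and in the 22 anti-CD3L1 clusters from 0 to 10.0 CPM.

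No paired analysis was possible because each group has 1 library. The spread between tumors is unknown, ratios of the members in the low library rest on 0 to 52 UMIs per class, and classes with under 50 cells in the control IgG library set only weak limits.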
